A study of Homo sapiens with 84 samples.

Results

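The 36 genes described here encode the machinery that licenses, fires and copies replication origins, together with the enzymes and regulators that start S phase. They were chosen by gene symbol: a peak belonged to a gene when the deposited annotation gave it that symbol, and the counts of the peaks within 10 kb of the annotated transcription start site (TSS) were summed per gene. Of the 36, 35 had at least 1 peak under their own symbol and 33 had 1 within 10 kb, out of 24455 genes with such a peak. ORC2 and PRIM1 had only farther peaks and MCM7 had none. The 35 genes held 663 of 861439 peaks, 132 of them within 10 kb.

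Chromatin accessibility was measured by Omni-ATAC, an ATAC-seq protocol whose transposase inserts sequencing adapters where DNA is open, in established human triple-negative breast cancer cell lines. Of the 9 lines, 4 (SUM-159PT, SUM-149PT, MDA-MB-231, MDA-MB-468) received vehicle (DMSO), tazemetostat (an inhibitor of the histone methyltransferase EZH2), ipatasertib (an inhibitor of the kinase AKT) or both agents together. The other 5 (HCC1937, HCC1395, HCC1143, BT-549, BT-20) were studied in DMSO and with the combination. Per the labels, each agent was used at 5 uM in medium with 2% FBS, tazemetostat from day -5 and ipatasertib from day 0, and cells were collected after 24 h. That schedule is written out for MDA-MB-468 and taken here to hold for the other lines. Each of the 26 groups had 3 replicates, giving 78 libraries of 12292571 to 21459284 counts in peaks. The 6 samples of HCC1806 were not analysed here. No label says whether replicates came from separate cultures, and in 76 of 78 replicate pairs the counts differed by less than the sampling noise. The 3 replicates of a group were therefore summed and counted as 1 sample, so that the cell line was the unit of replication. The remaining 2 pairs both held replicate 3 of HCC1395 in DMSO. Without it 19 of 33 genes still fell in the main comparison. All values are from cell populations, in which fewer cells of a state and less open chromatin per cell cannot be told apart.

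Before S phase, the origin recognition complex (ORC), CDC6 and CDT1 load the MCM2-7 helicase onto origins. CDC45 and the GINS complex then join MCM2-7 to form the active helicase, and polymerases alpha, delta and epsilon copy DNA with the PCNA clamp and its loader, replication factor C. The retinoblastoma protein holds E2F factors in check, and cyclin E with CDK2 is among the kinases that help to release them. E2F factors are known to drive many of these genes.

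The promoter letters of these genes are shown first because E2F sites in them are well known. Of 31 member genes with a promoter window in the RefSeq table (GRCh38.p14, 250 bases before to 50 after the start), 17 held an E2F word, which is 54.8% against 3.33% of the 27305 windows in the table. The words searched were TTTCGCGC, TTTGGCGC, TTTCCCGC and TTTGCCGC on both strands. A GC box (GGGCGG) was in 22 windows (71.0% against 44.6%), a CCAAT box in 19 (61.3% against 35.7%), and the CHR word TTTGAA in 1 (3.23% against 15.4%). One E2F match, in PCNA, overlapped a GC box. Among protein-coding genes alone the E2F share was 4.44%. The 160 bases before the start are shown for 6 genes that the results turn on, 5′ to 3′ on the gene's strand, with E2F matches in capitals. E2F1 encodes the factor itself, and CDT1 and POLA2 fell. PCNA has the largest median gene sum in DMSO, and MCM6 carries the most matches with little change. CCNE1 has no match and was the one member with a fold above 0.
E2F1, chr20:33686386-33686545, minus strand: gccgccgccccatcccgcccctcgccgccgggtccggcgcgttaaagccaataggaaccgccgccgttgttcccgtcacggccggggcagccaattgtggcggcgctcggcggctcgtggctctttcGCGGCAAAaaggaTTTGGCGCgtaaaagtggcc
CDT1, chr16:88803629-88803788, plus strand: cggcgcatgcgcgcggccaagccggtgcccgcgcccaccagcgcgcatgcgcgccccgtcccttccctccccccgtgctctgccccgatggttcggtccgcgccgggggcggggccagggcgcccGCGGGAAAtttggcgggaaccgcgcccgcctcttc
POLA2, chr11:65261802-65261961, plus strand: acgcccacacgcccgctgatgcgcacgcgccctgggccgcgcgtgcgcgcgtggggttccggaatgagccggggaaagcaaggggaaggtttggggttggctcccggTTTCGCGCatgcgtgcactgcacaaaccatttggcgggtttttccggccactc
PCNA, chr20:5126623-5126782, minus strand: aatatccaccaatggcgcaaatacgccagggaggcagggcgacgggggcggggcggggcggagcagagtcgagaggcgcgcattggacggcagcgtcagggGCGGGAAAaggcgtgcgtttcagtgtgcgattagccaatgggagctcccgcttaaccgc
MCM6, chr2:135876444-135876603, minus strand: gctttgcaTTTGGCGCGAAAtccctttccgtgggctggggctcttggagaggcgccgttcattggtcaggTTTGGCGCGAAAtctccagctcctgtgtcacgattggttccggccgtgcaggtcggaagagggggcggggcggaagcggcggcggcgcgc
CCNE1, chr19:29811831-29811990, plus strand: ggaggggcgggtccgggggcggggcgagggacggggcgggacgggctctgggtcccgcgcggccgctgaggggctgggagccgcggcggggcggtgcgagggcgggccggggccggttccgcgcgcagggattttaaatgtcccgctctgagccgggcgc
In MCM6 each capital run holds overlapping matches on opposite strands, 4 in all. A match describes letters and is not evidence of binding.

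With the combination, chromatin at the replication genes was less open across the 9 lines. Of 33 genes tested, 19 fell and 0 rose (edgeR quasi-likelihood test with the line as block, Benjamini-Hochberg adjusted p under 0.05), and 32 had a log2 fold below 0. Over all 23446 genes tested, 17.8% fell and 10.7% rose. The median log2 fold was -0.14 for the replication genes and -0.02 for all genes. At an unadjusted p under 0.05, 24 of 33 replication genes and 6006 of 23446 genes in all were lower, and the 33 folds ran from -0.78 to 0.02. Open genes fell more often in general, since where the mean log2 CPM was 5 or more the share was 28.4%, against 15 of 26 replication genes. In the values below, gene CPM means a CPM whose total is all counts in gene sums, and the lowest, median and highest of the 9 lines are given.

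**Figure D1:**
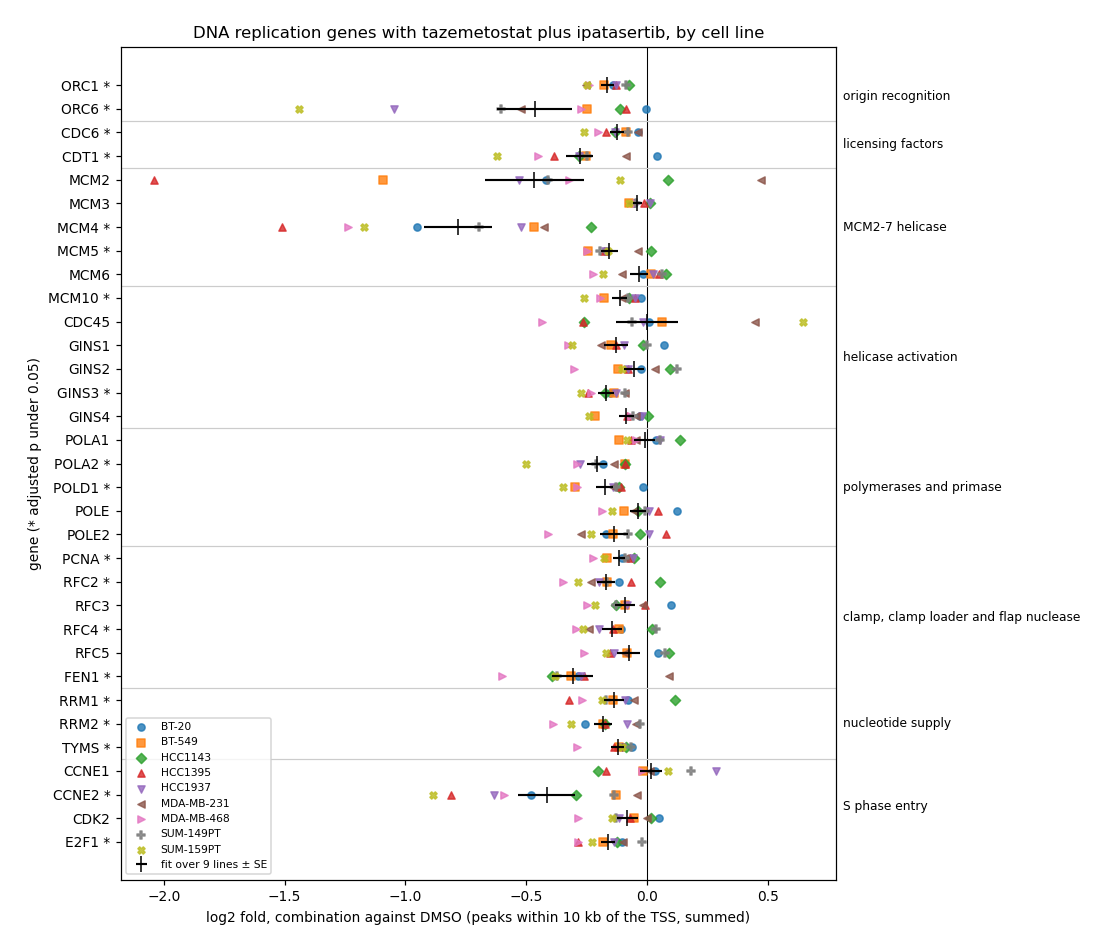
Log2 fold of the summed peaks within 10 kb of the TSS, combination against DMSO, for 33 replication genes by role, with 1 symbol per cell line and a black bar for the fit over 9 lines ± SE. The fit lies below 0 for 32 genes, and MCM2, MCM4, ORC6, CDC45 and CCNE2, which have few counts, show the widest scatter.

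Both measured subunits of the origin recognition complex fell. ORC1, the largest ATP-binding subunit, had 44.4, 63.4 and 91.6 gene CPM in DMSO and 40.7, 55.4 and 77.6 with the combination. It was lower in 9 of 9 lines, a log2 fold of -0.16 ± 0.03 (SE, adjusted p = 0.00376), although the ranges of the 2 groups overlapped, as they did for every member. ORC6, which helps bind DNA, had a far smaller gene sum. It had 1.36, 4.90 and 8.57 gene CPM in DMSO and 1.26, 3.29 and 8.55 with the combination. That sum lacks the peak over its start site, which carries another symbol. On the counts in all peaks, that peak had 36.4, 42.0 and 60.4 CPM in DMSO. The ORC6 sum was lower in 9 lines (-0.47 ± 0.16, adjusted p = 0.0431), from -1.44 in SUM-159PT to -0.0039 in BT-20. The ORC6 call was lost when any line other than BT-20 was left out (adjusted p from 0.0567 to 0.102), without replicate 1 or 3 (0.0535 and 0.067) and with total counts as scaling (0.05005).

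The licensing factors CDC6 and CDT1, which load the helicase, both fell. CDC6 went from 51.9, 60.0 and 76.2 gene CPM to 47.4, 57.2 and 74.2 and was lower in 9 lines (-0.13 ± 0.03, adjusted p = 0.0103). CDT1 went from 37.3, 57.5 and 99.8 to 24.3, 47.4 and 95.5 gene CPM (-0.28 ± 0.06, adjusted p = 0.00667). It was lower in 8 lines, with BT-20 at 0.04 and SUM-159PT at -0.62, and passed the test within 7 of the 9 lines.

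Of the MCM2-7 ring, 5 subunits had a gene sum and 2 of them fell, MCM4 and MCM5. MCM4 showed the largest fall of all members, from 1.84, 7.72 and 15.6 gene CPM to 0.816, 3.82 and 11.2 (-0.78 ± 0.14, adjusted p = 0.0047). Every line was lower: BT-20 went from 13.8 to 7.13 gene CPM, HCC1395 from 5.10 to 1.79 and MDA-MB-468 from 7.72 to 3.28, while HCC1143 had 2.08 and 1.77. These counts come from 5 peaks 7 to 10 kb downstream of the TSS, because the peak over its start site carries another symbol. MCM5 went from 31.6, 41.3 and 80.9 to 30.8, 36.1 and 71.6 gene CPM (-0.16 ± 0.04, adjusted p = 0.01, lower in 8 lines). MCM2 had the same size of fold as ORC6 but more scatter (-0.47 ± 0.20, adjusted p = 0.104), from -2.04 in HCC1395 to 0.47 in MDA-MB-231, and fell without replicate 3 (-0.55, adjusted p = 0.0372) or with peaks up to 50 kb (-0.49, adjusted p = 0.0126). MCM3 (-0.04 ± 0.02, adjusted p = 0.153) and MCM6 (-0.03 ± 0.04, adjusted p = 0.515) did not pass the test, and MCM6 was higher in 5 of 9 lines.

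Among the 6 genes that turn the loaded helicase on, MCM10 and GINS3 fell. MCM10, which helps the helicase start, went from 33.8, 50.5 and 71.3 to 33.2, 44.2 and 67.7 gene CPM (-0.11 ± 0.03, adjusted p = 0.0223). GINS3 went from 25.7, 45.4 and 73 to 24.1, 38.4 and 68.5 (-0.17 ± 0.03, adjusted p = 0.00606), and both genes were lower in 9 lines. The MCM10 call was lost without BT-549, HCC1143, MDA-MB-231, MDA-MB-468 or SUM-149PT (adjusted p from 0.0546 to 0.0776) and without replicate 1 (0.0601). The GINS3 call was lost when peaks up to 50 kb were summed (-0.03, adjusted p = 0.667). The other GINS subunits did not pass, with folds of -0.13 ± 0.05 for GINS1, -0.05 ± 0.04 for GINS2 and -0.09 ± 0.03 for GINS4 (adjusted p = 0.0718, 0.356 and 0.0643). GINS1 fell with abundance-trended scaling (-0.18, adjusted p = 0.0244) and with peaks up to 50 kb (-0.17, adjusted p = 0.0441), and GINS4 without replicate 3 (adjusted p = 0.0486). CDC45 had a fold of -0.0015 ± 0.13 on 1.2 to 6.03 gene CPM in DMSO, and its single peak within 10 kb lies inside the gene, away from the start site. With peaks up to 50 kb, CDC45 fell (-0.31, adjusted p = 0.0486).

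Of the 5 measured polymerase genes, POLA2 and POLD1 fell. POLA2, the regulatory subunit of polymerase alpha, which lays the primers, went from 53.6, 71.7 and 88.9 to 37.8, 60.9 and 83.5 gene CPM (-0.21 ± 0.04, adjusted p = 0.00631, lower in 9 lines). POLD1, the catalytic subunit of the lagging-strand polymerase delta, went from 57.3, 73.6 and 90.1 to 50.9, 63.7 and 83.6 (-0.18 ± 0.04, adjusted p = 0.00654, lower in 9 lines). The catalytic subunits POLA1 and POLE of the other polymerases had folds of -0.0095 ± 0.04 and -0.04 ± 0.03 (adjusted p = 0.884 and 0.382). POLE2, an accessory subunit of polymerase epsilon, had -0.14 ± 0.06 (adjusted p = 0.0972). With peaks up to 50 kb, POLE (-0.14, adjusted p = 0.0325) and POLE2 (-0.36, adjusted p = 0.00689) fell, and POLE2 also fell with abundance-trended scaling (-0.23, adjusted p = 0.0212).

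Around the sliding clamp, PCNA, RFC2, RFC4 and FEN1 fell, 4 of 6 genes. PCNA, the clamp that tethers polymerases to DNA, went from 136, 179 and 236 gene CPM to 129, 168 and 202 (-0.12 ± 0.02, adjusted p = 0.00808) and was lower in 9 lines. Its call was lost when the scaling followed the abundance of each gene (-0.04, adjusted p = 0.113). Clamp loader subunit RFC2 went from 54.0, 74.4 and 99.9 to 47.0, 63.3 and 84.9 (-0.17 ± 0.04, adjusted p = 0.00892, lower in 8 lines). RFC4 went from 30.2, 48.5 and 77.6 to 25.1, 44.4 and 67.7 (-0.14 ± 0.04, adjusted p = 0.0244, lower in 7 lines). Its call was lost without BT-549, HCC1395, HCC1937, MDA-MB-231 or MDA-MB-468 (adjusted p from 0.0518 to 0.0641) and without replicate 1 (0.0559). The loader subunits RFC3 and RFC5 had folds of -0.09 ± 0.04 and -0.08 ± 0.05 (adjusted p = 0.104 and 0.235). FEN1, the nuclease that trims Okazaki fragments, went from 6.55, 13.9 and 19.4 to 4.99, 9.49 and 16.2 gene CPM (-0.31 ± 0.08, adjusted p = 0.0205), lower in every line but MDA-MB-231. The FEN1 call was lost without SUM-149PT (adjusted p = 0.0516) or replicate 2 (0.104).

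All 3 genes of nucleotide supply fell. RRM2, the S-phase subunit of ribonucleotide reductase, went from 109, 138 and 200.4 to 95.7, 121 and 173 gene CPM (-0.18 ± 0.04, adjusted p = 0.00717, lower in 9 lines). RRM1, its partner, went from 29.6, 62.8 and 80.7 to 32.1, 54.9 and 76.4 (-0.14 ± 0.04, adjusted p = 0.0264, lower in 8 lines). The RRM1 call was lost without BT-20, BT-549, HCC1395, MDA-MB-231, MDA-MB-468 or SUM-149PT (adjusted p from 0.05004 to 0.0828) and with abundance-trended scaling (0.058). TYMS, which makes thymidylate, went from 57.5, 66.4 and 129 to 52.3, 61.2 and 105 (-0.12 ± 0.03, adjusted p = 0.00887, lower in 9 lines).

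The 4 genes of S phase entry split. E2F1 went from 71.5, 100.5 and 109 to 60.3, 92.2 and 101 gene CPM (-0.16 ± 0.03, adjusted p = 0.00524) and was lower in 9 lines. CCNE2, one of the cyclin E genes, went from 2.01, 4.96 and 11.7 to 1.13, 3.58 and 10.7 (-0.42 ± 0.12, adjusted p = 0.0237, lower in 9 lines) on a single peak. Its call was lost without BT-20, HCC1395 or HCC1937 (adjusted p from 0.0518 to 0.056) and without replicate 3 (0.0686). CDK2, the partner kinase, had -0.08 ± 0.04 (adjusted p = 0.172). CCNE1, the other cyclin E gene, was the only member with a fold above 0 (0.02 ± 0.05, adjusted p = 0.807). Its lines went opposite ways: within lines it rose in HCC1937 (37.5 to 45.7 gene CPM), SUM-149PT (54.9 to 62.4) and SUM-159PT (65.0 to 68.9), and fell in HCC1143 (150.4 to 130.5) and HCC1395 (66.5 to 59.0). When peaks up to 50 kb were summed, CCNE1 rose across the 9 lines (0.16, adjusted p = 0.0126). With peaks at 1 to 10 kb alone, an alternative added after the data had been seen, 10 of 29 members fell and 0 rose (8.89% and 8.25% of genes).

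Because the annotation ties each peak to 1 gene, the gene sum can miss the start site itself. All 36 genes, ORC2, PRIM1 and MCM7 included, had a peak over their RefSeq start. For 27 that peak carried the gene's own symbol. For 9 it carried a neighbour's: ORC2, ORC6, MCM2, MCM4, MCM7, CDC45, PRIM1, FEN1 and CCNE2, whose start-site peaks were listed under LOC105373835, VPS35, TPRA1, PRKDC, AP4M1, UFD1, HSD17B6, MIR611 and NDUFAF6. This is common, since 7255 of 19704 genes with a start-site peak (36.8%) were in the same position. The start-site peaks were therefore tested as well, an alternative added after the data had been seen.

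Every one of the 36 start-site peaks had a log2 fold below 0, and 7 fell with 0 risen. This was not particular to the members. All start-site peaks tested of other replication genes (40), RB-E2F regulators (23), mitosis genes (34) and housekeeping genes (11) were also below 0, with 0 risen. Over all 15540 start-site peaks tested, 67.9% were below 0, 4.99% fell and 4.09% rose, and the medians were -0.15 for members and -0.08 for all. Where the mean log2 CPM of the start-site peak was 3 or more, 83.5% of all were below 0, 6.86% fell and 1.58% rose, against 35, 7 and 0 of 35 for members. In peak CPM, whose total is the counts in all peaks, RRM2 fell most, from 16.5, 23.5 and 34.7 to 12.9, 19.4 and 28.0 (-0.35 ± 0.07, adjusted p = 0.0105). The 6 others were POLA2 (-0.29 ± 0.07), FEN1 (-0.27 ± 0.06), PRIM1 (-0.26 ± 0.07), POLD1 (-0.22 ± 0.06), E2F1 (-0.21 ± 0.06) and ORC1 (-0.21 ± 0.06), with adjusted p from 0.0207 to 0.048.

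PRIM1, the catalytic subunit of the primase, has no gene sum and appears only through this peak. It went from 10.6, 13.9 and 17.6 to 7.48, 12.4 and 12.7 peak CPM and was lower in 9 lines. ORC2 and MCM7, also without a gene sum, had -0.13 ± 0.05 (adjusted p = 0.14) and -0.15 ± 0.05 (adjusted p = 0.0999). For MCM4 the start-site peak had 26.2, 35.3 and 58.1 peak CPM in DMSO and 26.5, 30.1 and 47.1 with the combination, a fold of -0.12 ± 0.05 (adjusted p = 0.168) and lower in 6 lines. ORC6 (-0.15 ± 0.05, adjusted p = 0.0773) and CCNE2 (-0.12 ± 0.05, adjusted p = 0.181) also had smaller folds at the start site than in the gene sum. CDT1 had -0.16 ± 0.08 (adjusted p = 0.243), MCM6 -0.08 ± 0.07 (adjusted p = 0.486) and CCNE1 -0.03 ± 0.07 (adjusted p = 0.829). The count of 7 was unsteady: it was 3 without BT-549, MDA-MB-231, MDA-MB-468 or SUM-159PT, 4 without HCC1937 and 17 without replicate 3, while all 36 stayed below 0 in each of these except 35 without SUM-159PT.

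**Figure D2:**
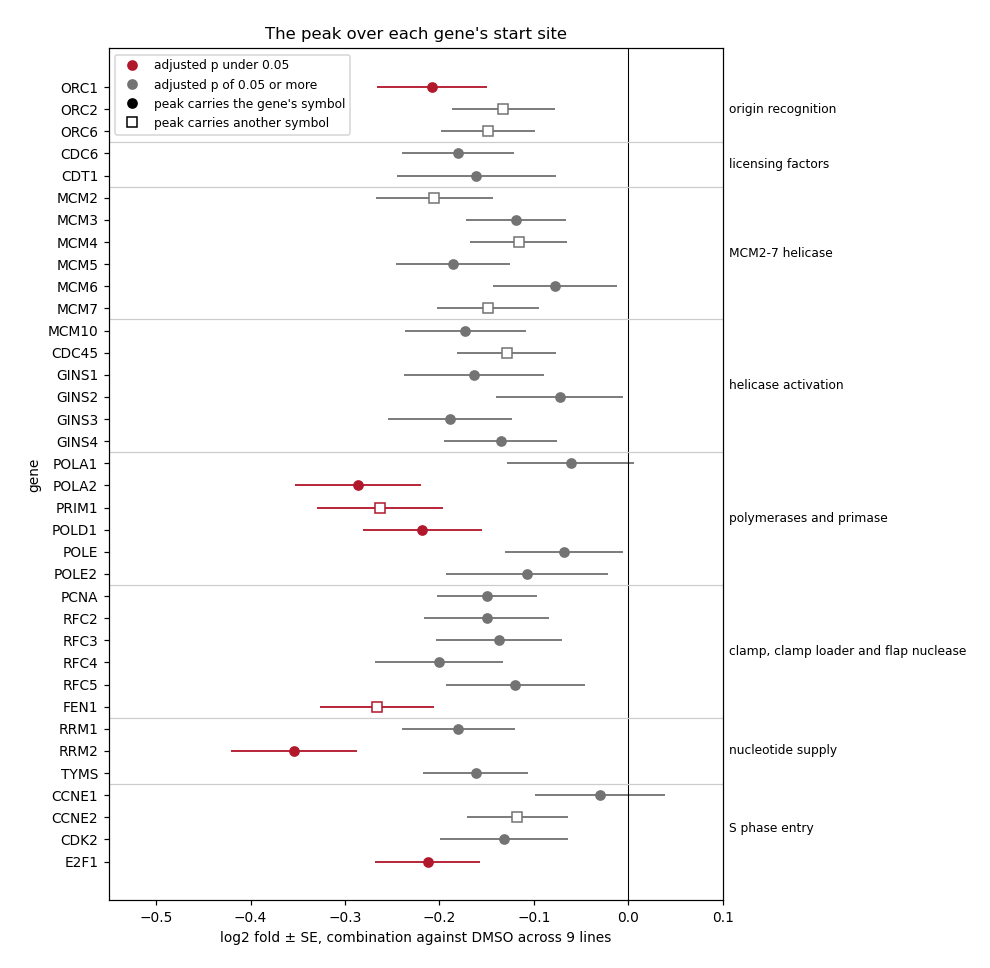
Log2 fold ± SE of the peak over each gene's start site, combination against DMSO across 9 lines, for all 36 genes by role. Red marks an adjusted p under 0.05 and open squares mark the 9 peaks listed under another gene's symbol, and all 36 points lie below 0, from -0.35 for RRM2 to -0.03 for CCNE1.

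The start-site falls were uneven over lines. The median of the 36 log2 folds was -0.42 in MDA-MB-468, -0.32 in SUM-159PT, -0.26 in BT-549 and -0.20 in MDA-MB-231, with 36, 36, 36 and 35 peaks below 0. It was -0.09 in HCC1937, -0.07 in HCC1143, -0.04 in BT-20, -0.03 in SUM-149PT and 0.01 in HCC1395, where 17 of 36 were below 0. Start sites of all genes also lay mostly below 0 across the 9 lines, 67.9% of them and 83.5% of the well-covered ones. These medians therefore describe the members only. Whether members fell more than other start sites within a single line was not tested. Genes are also given by the E2F word in their promoter window, with no test of the difference. With a word, 2 of 17 start-site peaks and 7 of 16 gene sums fell, with medians of -0.15 and -0.12. Without one, 5 of 14 and 9 of 12 fell, with medians of -0.18 and -0.15.

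Peaks inside the genes, beyond the start site, carried larger folds than the start sites did. Over all member peaks, 366 were tested, of which 52 fell and 7 rose, where 2.72% of the 410603 peaks tested fell and 3.53% rose. Inside the gene that a peak is listed under, with start-site peaks left out, 40 of 195 member peaks fell and 0 rose with a median log2 fold of -0.43. All such peaks of all genes fell in 3.53% and rose in 3.2% of cases, with a median of -0.05. The in-gene medians were -0.52 for housekeeping genes, -0.48 for mitosis genes, -0.35 for other replication genes and -0.20 for RB-E2F regulators. By annotated class, 14 of 67 exon peaks fell and 1 rose (4.75% and 2.54% over all genes), and 23 of 129 intron peaks fell and 0 rose (2.62% and 3.32%). Of promoter peaks 10 of 46 fell and 0 rose (5.09% and 4.43%), and of distal intergenic peaks 5 of 120 fell and 6 rose (1.19% and 3.95%). The count of 52 fell to 19 to 33 when any of BT-20, BT-549, HCC1143, HCC1395, HCC1937, MDA-MB-468 or SUM-159PT was left out, and to 33 without replicate 1.

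**Figure D3:**
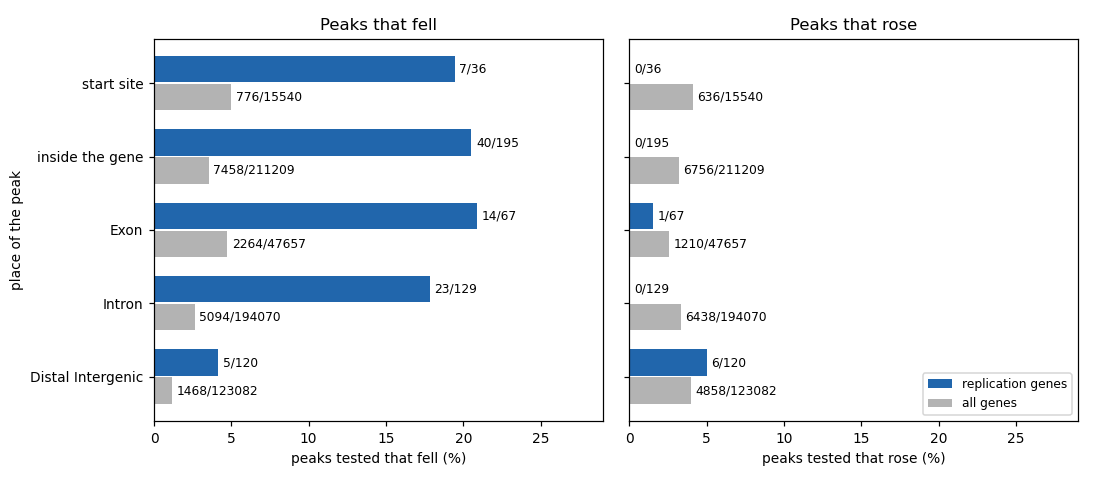
Percent of tested peaks that fell (left) or rose (right) with the combination across 9 lines, for replication genes (blue) and all genes (grey), by place, with counts beside each bar. Exon and intron classes overlap with the peaks inside the gene, where 40 of 195 member peaks fell and 0 rose.

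The falls gathered under a few gene symbols: 11 of 47 tested peaks of RRM2, 10 of 31 of POLA2, 6 of 16 of POLD1 and 4 of 9 of RFC2. Not all of these lay in the gene. Outside its RefSeq bounds were the POLA2 peaks that start at chr11:65255392, 65307413, 65321889 and 65323328, and the RRM2 peak at chr2:10116053. The largest among well-covered peaks (mean log2 CPM of 1 or more) lay in RRM2 at chr2:10131770-10133749 (hg38), annotated to intron 9 of 11. It had 1.74, 4.08 and 12.4 peak CPM in DMSO and 0.938, 2.10 and 7.59 with the combination, lower in 9 lines (-1.06 ± 0.17, adjusted p = 0.00636). Another RRM2 peak in the same intron, chr2:10135216-10136664, had -0.71 ± 0.17 (adjusted p = 0.0276), and an exon 10 peak at chr2:10141066-10141892 had -0.79 ± 0.18 (adjusted p = 0.0192). The fallen RRM2 peaks were the start-site peak, a peak at -4326 bp from the annotated TSS, and peaks 11072 to 57939 bp downstream of it.

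POLE2, whose gene sum did not pass, held the second largest fall, at chr14:49659574-49660443 in intron 10 of 18, from 0.754, 5.04 and 11.6 to 0.384, 1.96 and 9.18 peak CPM (-0.86 ± 0.15, adjusted p = 0.00744). An RFC2 peak 585 bp from the TSS, at chr7:74253006-74253873, went from 1.18, 3.36 and 6.92 to 0.729, 2.15 and 3.01 (-0.78 ± 0.12, adjusted p = 0.00573). Both were lower in 9 lines. POLA2 fell in intron 12 of 15 at chr11:65290593-65291195 (-0.74 ± 0.15, adjusted p = 0.0141) and beyond its 3′ end at chr11:65323328-65324322 (-0.68 ± 0.19, adjusted p = 0.0418). POLD1 fell in exon 23 of 26 at chr19:50416626-50417665, from 1.02, 3.20 and 3.90 to 0.874, 1.92 and 2.88 peak CPM (-0.64 ± 0.12, adjusted p = 0.0112).

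CCNE1 went the other way. All 7 member peaks that rose were listed under it, all lay outside the gene (RefSeq, chr19:29811991-29824312), and 0 of its 36 tested peaks fell. The best covered, chr19:29841217-29842038, 29226 bp downstream of the TSS, had 2.26, 8.16 and 14.5 peak CPM in DMSO and 3.09, 7.77 and 17.3 with the combination, higher in 8 lines (0.29 ± 0.09, adjusted p = 0.0478). The median over lines was not higher, although 8 single lines were. The largest rises, chosen here after their values were seen, were in thin peaks farther downstream. The peak at chr19:29863634-29864338 had 0.158, 0.634 and 2.95 peak CPM in DMSO and 0.313, 2.13 and 6.03 with the combination (1.16 ± 0.18, adjusted p = 0.00555, higher in 9 lines). Without BT-549, 4 member peaks rose in place of 7.

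**Figure D4:**
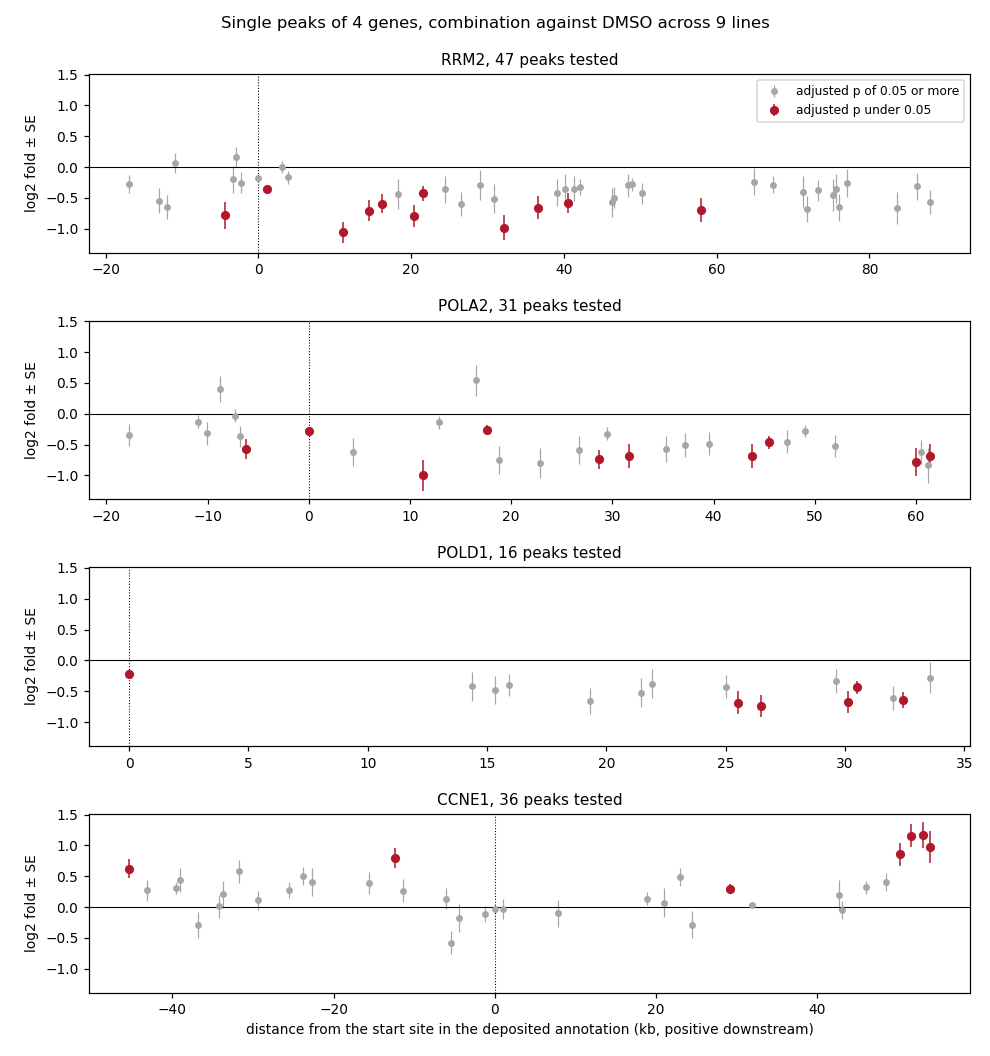
Log2 fold ± SE of each tested peak of RRM2, POLA2, POLD1 and CCNE1 against its distance in kb from the annotated start site (positive is downstream), combination against DMSO across 9 lines, with red for an adjusted p under 0.05. Red points lie below 0 for RRM2, POLA2 and POLD1, some of them outside the gene for RRM2 and POLA2, and above 0 on both sides of CCNE1.

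Tazemetostat alone and the combination gave falls at these genes, and ipatasertib alone gave none, in the 4 lines with every treatment. By the schedule given above, tazemetostat was started days before ipatasertib, so the single agents differed in length of exposure as well. Agent and length of exposure therefore cannot be told apart here, and equal exposure to both agents was not tested. The 3 comparisons share their DMSO samples and 1 fit, so their values are set side by side. With tazemetostat 15 of 33 fell and 0 rose (18.7% and 9.86% of 23907 genes), with a median of -0.15. With the combination 12 fell and 0 rose (12.5% and 7.37%), with a median of -0.13. With ipatasertib 0 fell and 0 rose (0% and 0%), also at an unadjusted p under 0.05 and by DESeq2. Over all genes, 338 were higher and 199 lower at that unadjusted p. The median ipatasertib fold was -0.0018 with a median SE of 0.05, and 31 of 33 genes lay within 0.1 of 0.

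RFC2 had the smallest adjusted p with tazemetostat, -0.27 ± 0.04 (adjusted p = 0.00242), beside -0.23 ± 0.04 with the combination and -0.04 ± 0.04 with ipatasertib. CDT1 had -0.30 ± 0.08, -0.32 ± 0.08 and -0.03 ± 0.07. In MDA-MB-468, CDT1 stood at 80.6 gene CPM in DMSO, 58.1 with tazemetostat, 84.0 with ipatasertib and 59.0 with both. In SUM-159PT it stood at 37.3, 28.6, 35.5 and 24.3, and in MDA-MB-231 at 50.6, 43.9, 48.8 and 47.6. SUM-149PT, highest in DMSO at 99.8 gene CPM, is not listed by treatment here. Over the 4 lines, CDT1 was below DMSO in 4 with tazemetostat and in 3 with ipatasertib. In MDA-MB-468 and SUM-159PT both tazemetostat and combination values lay well below the DMSO and ipatasertib values, while in MDA-MB-231 the combination value was nearer to that of ipatasertib.

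POLA2 had -0.21 ± 0.05 with tazemetostat, -0.26 ± 0.05 with the combination and -0.06 ± 0.05 with ipatasertib, and POLD1 had -0.24 ± 0.04, -0.20 ± 0.04 and -0.0046 ± 0.04. MCM4 passed only with the combination (-0.81 ± 0.19, adjusted p = 0.0151), beside -0.47 ± 0.18 with tazemetostat (adjusted p = 0.0735) and -0.15 ± 0.18 with ipatasertib. Set against each other, combination against tazemetostat gave -0.34 ± 0.19 for MCM4 and did not pass the test (adjusted p = 1). CDK2 passed with tazemetostat (-0.21 ± 0.05, adjusted p = 0.0147) and not with the combination (-0.12 ± 0.05, adjusted p = 0.124). CCNE1 had 0.0027 ± 0.07 with tazemetostat, 0.07 ± 0.06 with ipatasertib and 0.09 ± 0.07 with the combination. CDC45 had the fold farthest above 0 with ipatasertib, 0.32 ± 0.22.

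Set directly against tazemetostat, the combination changed 0 of 33 genes (0% of all genes, and 0 members at an unadjusted p under 0.05 or by DESeq2). The non-additive term, combination minus both single agents, also gave 0 (0% of all genes), again 0 at an unadjusted p under 0.05. The counts with tazemetostat and with the combination leaned on single lines. Without MDA-MB-468 they were 4 and 3, without SUM-159PT 4 and 2, and with tazemetostat 6 without SUM-149PT.

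**Figure D5:**
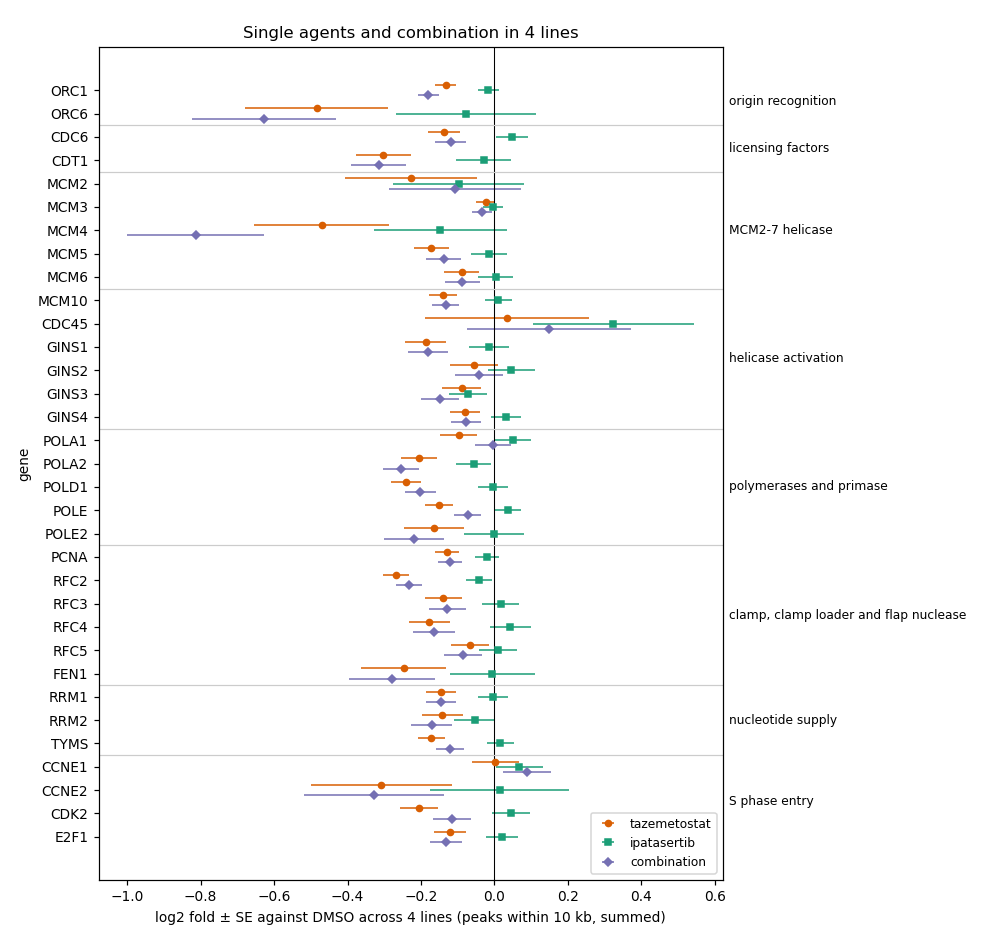
Log2 fold ± SE against DMSO across 4 lines for tazemetostat (orange), ipatasertib (green) and the combination (purple), for 33 replication genes by role. Tazemetostat and combination points mostly lie together below 0, and 31 of 33 ipatasertib points lie within 0.1 of 0. Exposure to tazemetostat was longer than exposure to ipatasertib.

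Single peaks showed the same arrangement only in part. At the start site of POLA2 in MDA-MB-468, 25.1 peak CPM in DMSO stood beside 14.8 with tazemetostat, 26.8 with ipatasertib and 17.3 with both (scaled over all 26 groups). In SUM-159PT the values were 15.1, 8.87, 15.1 and 8.79. In SUM-149PT every start-site peak was higher with ipatasertib than in DMSO, and in MDA-MB-468 every one except that of RRM2. In the other lines both directions occurred. E2F1 in SUM-149PT had 35.7 in DMSO, 30.8 with tazemetostat, 43.2 with ipatasertib and 36.3 with both. These differences were not tested. The RRM2 intron 9 peak at chr2:10131770-10133749 differed: in MDA-MB-468 it went from 11 in DMSO to 5.22 with tazemetostat, 5.57 with ipatasertib and 2.00 with both. In MDA-MB-231 it had 12.5, 8.93, 9.57 and 7.56, in SUM-149PT 5.98, 6.17, 5.27 and 5.10, and in SUM-159PT 1.69, 1.26, 1.32 and 0.883. The ipatasertib value at this peak was below DMSO in all 4 lines, which was not tested.

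Line by line, 85 of 290 gene and line pairs fell with the combination (14.8% over all genes) and 3 rose (19.4%), where p-values cover counting error only. MDA-MB-468 led with 18 of 33 genes fallen (21.7% over all genes), then BT-549 and SUM-159PT with 14 of 33 (19.2%) and 14 of 32 (21.1%). HCC1937 had 11 of 33 (13%), HCC1395 8 of 32 (13.4%), SUM-149PT 8 of 33 (10.6%) and BT-20 5 of 33 (9.47%). MDA-MB-231 with 4 of 33 (10%) and HCC1143 with 3 of 28 (14.3%) were near or under the share of all genes. In MDA-MB-468 every one of 33 summed genes was below DMSO on the scaling over 9 lines, with a median of -0.29, against -0.05 in BT-20. In the fits within a line, 29 of 33 were below 0 in MDA-MB-468 with a median of -0.19, against -0.06 in BT-20. The medians over all genes there were -0.012 and -0.0025. The 3 rises were all CCNE1, in HCC1937, SUM-149PT and SUM-159PT (16.1%, 16.9% and 27.9% of all genes rose there). With tazemetostat alone, MDA-MB-468 had 17 of 33 fallen (26.9%), SUM-149PT 8 (9.88%), SUM-159PT 7 (21.6%) and MDA-MB-231 5 (10.3%). With ipatasertib alone, RRM2 fell in MDA-MB-468 (3.9% over all genes), from 200.4 to 183 gene CPM, and CCNE1 rose in SUM-149PT (2.07% over all genes), from 54.9 to 64.0. A test of line by combination called 19 of 33 members, fewer by share than the 73.7% of all genes.

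Before treatment, the gene sums of the members differed far more than any agent moved them. Per kb of peak, the median DMSO level over lines was highest for PCNA (48.1 gene CPM per kb), RRM2 (31.6), POLE (31.5) and ORC1 (31.3). It was lowest for MCM2 (1.61), ORC6 (4.36), MCM4 (4.55) and CDC45 (5.62), 4 genes whose sums lack the start-site peak. Their start-site peaks had median DMSO levels of 16.0, 42.0, 35.3 and 26.2 peak CPM (not per kb), beside 35.9 for PCNA. The MCM4 sum also varied most between lines, with the highest line 8.47 times the lowest, then ORC6 (6.29 times) and CCNE2 (5.80 times). These sums all lack the start-site peak, and the MCM4 start-site peak ran from 26.2 to 58.1 peak CPM. CCNE1 differed 4.02 times, from 37.5 gene CPM in HCC1937 to 150.4 in HCC1143. CDK2 (1.32 times) and RFC5 (1.39 times) varied least.

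Other gene groups are set beside the shares of all genes, 17.8% fallen, or 28.4% of the open genes. Of 42 other replication genes measured, 18 (42.9%) fell and 0 rose, with a median of -0.09. Among them was ORC3 (-0.51 ± 0.13) of the origin recognition complex. The nuclease-helicase DNA2 (-0.27 ± 0.06), MTBP (-0.24 ± 0.05) and RECQL4 (-0.17 ± 0.03), which act at origin firing or fork processing, fell as well. Of 28 RB-E2F regulators, 12 (42.9%) fell and 1 rose: CDKN1B (-0.52 ± 0.15), E2F4 (-0.23 ± 0.03) and TFDP1 (-0.19 ± 0.05) fell, and CCND2, which encodes cyclin D2, rose (0.50 ± 0.10). Of 37 mitosis genes, 24 (64.9%) fell and 0 rose with a median of -0.17, GTSE1 (-0.73 ± 0.17), NDC80 (-0.55 ± 0.15), BIRC5 (-0.36 ± 0.07) and AURKB (-0.35 ± 0.05) the most. Of 13 housekeeping genes, which serve all cells, 11 (84.6%) fell with a median of -0.14, the value found for the replication genes. GAPDH (-0.28 ± 0.09), SDHA (-0.24 ± 0.08) and RPL13A (-0.20 ± 0.04) were among those that fell. Inside their genes, 23 of 69 housekeeping peaks and 46 of 205 mitosis peaks fell, beside 40 of 195 for the replication genes. The medians of these in-gene peaks were -0.52, -0.48 and -0.43. At start sites, 2 of 11 housekeeping, 10 of 34 mitosis, 4 of 40 other replication and 2 of 23 RB-E2F peaks fell. The members had 7 of 36. Start-site medians were -0.14, -0.17, -0.14, -0.13 and, for the members, -0.15.

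The summed openness of 8 epithelial marker genes in DMSO ran from 21.4 gene CPM per kb in BT-549 to 256 in MDA-MB-468, and that of 7 mesenchymal markers from 57.7 in MDA-MB-468 to 201 in BT-549. Of the markers of cells these cultures should lack, 6 of 8 immune genes were measured (88.7 to 144 in sum), and 6 of 6 endothelial genes (18.4 to 41.8). With the combination, 1 of 8 epithelial markers fell and 1 of 7 mesenchymal markers rose, and their part in the results was not tested.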

How the data were processed

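The authors deposited whole-number read counts per peak for 1 peak set shared by all 78 libraries, not normalised, and an annotation giving each peak 1 gene, a class and a distance to that gene's start. MACS2, featureCounts and hg38 are named per the submitters' processing notes. Their versions, the aligner, duplicate removal and any Tn5 shift were not given in the sources used here. The 36 members, their roles and the other gene lists were chosen with earlier results of these data known.

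Peaks up to 10 kb from a start site were summed per gene, and the 3 replicates of a group were summed to 1 sample. Genes passing filterByExpr (minimum count 10) were tested by quasi-likelihood in edgeR 4.0.16 (R 4.3.3, TMM scaling, robust fit, line as block) with Benjamini-Hochberg adjustment over all genes at a threshold of 0.05. The 9-line fit used DMSO and combination samples, and the 4-line fit used all 4 treatments. Single peaks were tested the same way. In peak fits that left out a line or replicate, the dispersion trend of the full fit was kept. Within lines and for line by treatment, single libraries were fitted, and the p-values cover counting error only. SE is the log2 fold over the root of that test's F. Log2 CPM values are means over samples. Named members and peaks followed size and threshold rules: all members past the threshold, and the 8 largest falls and 4 largest rises among member peaks whose mean log2 CPM was 1 or more. DESeq2 1.42.0, other scalings (abundance-trended offsets by loess in limma 3.58.1), other windows (1 kb, 50 kb) and other filters were alternatives. Start-site peaks and peaks at 1 to 10 kb were added after seeing the data. The biological coefficient of variation between lines was 13.3%. On simulated data with known answers, the 9-line test recovered 50 of 50 genes changed by -0.5 (log2) and 24 of 50 changed by -0.2. It recovered 27 of 50 changed by 0.2 and called 8 of 23242 unchanged genes. The simulated counts had the same fold in every line, changes only in genes with many counts, and a spread below 13.3%. Recovery under the spread of the real data was not tested.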

Additional observations from a re-analysis of the deposited data

Results flagged for a closer look

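Single lines stood apart from the other 8 in 8 of 66 sets of values (33 genes, DMSO level and log2 fold), by the gap to the next line against the whole range, where chance gives about 1 in 20. In DMSO, GINS4 was highest in BT-549 (92.6 gene CPM, next 66.2), POLE in HCC1143 (90.3, next 65.7), RFC4 in HCC1937 (77.6, next 52.6), TYMS in MDA-MB-468 (129, next 82.5) and CCNE1 in HCC1143 (150.4, next 82.0). With the combination, POLA2 had its lowest log2 fold in SUM-159PT (-0.50, next -0.29) and TYMS in MDA-MB-468 (-0.29, next -0.14). FEN1 had its highest in MDA-MB-231 (0.0896, next -0.26).

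The log2 fold with the combination differed between lines for 19 of 33 genes, beside 73.7% of all genes, by an interaction F test fitted to single libraries (edgeR quasi-likelihood, Benjamini-Hochberg adjusted). Its p-values cover counting error only, since no label says that replicates came from separate cultures. The adjusted p was 8.97e-13 for RRM2, 1.45e-11 for CDT1, 4.50e-09 for CCNE1, 0.000186 for POLA2, 0.000221 for ORC6, 0.000868 for RFC2 and 0.00104 for POLD1. It was 0.00137 for GINS2, 0.00244 for MCM4, 0.00298 for RRM1, 0.00328 for E2F1 and 0.00931 for PCNA. It was 0.0111 for POLE2, 0.0127 for MCM6, 0.0140 for RFC4, 0.0273 for MCM2, 0.0306 for GINS1, 0.0359 for POLE and 0.0401 for RFC5.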

How the results depend on the processing

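Of the counts recomputed under an alternative, 250 stayed within 1.5 times the main count and 40 did not. Fallen members across 9 lines (19) were 7 to 23 in all settings, 15 to 19 with a line or replicate left out, 10 with peaks at 1 to 10 kb alone (of 29 tested, against 8.89% of genes) and 7 with start-site peaks. With peaks up to 50 kb, 1 member (CCNE1) rose across 9 lines and 1 across 4. Fallen members in 4 lines ranged from 4 to 18 (tazemetostat) and 2 to 16 (combination) with a line or replicate left out, and the combination gave 7 within 1 kb and 20 by DESeq2. Within lines, the 85 fallen pairs were 43 within 1 kb, 45 by DESeq2 and 56 to 61 with a replicate left out, and the 3 risen pairs were 1 by DESeq2 and 1 to 3 with a replicate left out. Members that differed between lines (19) were 12 with total counts as scaling, 3 within 1 kb, 12 at a minimum count of 30, and 7 to 12 with a replicate left out. Member peaks that fell (52) were 19 to 44 and those that rose (7) 4 to 7 with a line or replicate left out. Fallen start-site peaks (7) were 3 to 17 with a line or replicate left out, 16 with total counts as scaling, 22 at a minimum count of 30 and 4 with no filter. The cause of these shifts was not tested.

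No called member changed sign. MCM4, POLD1, RRM2 and TYMS kept their call in every alternative fit of gene sums, though not all of them passed at the start-site peak (MCM4 and TYMS did not), and 10 members lost theirs with peaks at 1 to 10 kb alone. Signs changed only for members not called in the main comparison. CCNE1 was -0.0046 at 1 to 10 kb and -0.0094 to 0.0654 with a line or replicate left out, below 0 without HCC1937. CDC45 was 0.0012 with DESeq2 size factors, 0.0129 with total counts, 0.0017 at a minimum count of 30, 0.0093 without HCC1395 DMSO replicate 3, -0.31 (a fall) up to 50 kb, and -0.0616 to 0.0711 with a line or replicate left out. MCM3 was 0.0065 with abundance-trended offsets and 0.14 at 1 to 10 kb. POLA1 was 0.00595 with total counts, 0.0128 within 1 kb, 0.0147 without HCC1395 DMSO replicate 3 and -0.0116 to 0.0268 with a line or replicate left out, and POLE was 0.0046 within 1 kb.

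Replicate numbers did not pair the samples: same-numbered deviations correlated from -0.153 to 0.0603, and 10 of 27 libraries correlated best with their own number. With the replicate block, 86 pairs fell and 3 rose within lines, and 19 members differed between lines, so no count moved by over 1.5 times. Low counts limit MCM2, MCM4, ORC6, CDC45 and CCNE2 most. A fall of 0.2 (log2) was recovered for 48% of genes in simulated data, which had the same fold in every line.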

Other observations

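Outside the replication genes, single cell type markers moved with the combination across 9 lines (edgeR quasi-likelihood, adjusted over all genes, of which 17.8% fell and 10.7% rose). Of 8 epithelial markers 1 fell and 0 rose, and of 7 mesenchymal markers 1 rose and 0 fell. EPCAM, an epithelial adhesion molecule, fell (-0.31 ± 0.09, adjusted p = 0.0253), and PRRX1, a mesenchymal transcription factor, rose (0.47 ± 0.16, adjusted p = 0.0482). Of 6 endothelial genes, KDR (0.52 ± 0.15) and ERG (0.45 ± 0.14) rose and 0 fell, and the median log2 fold was 0.16. Of 6 immune genes measured, CD163 (0.42 ± 0.12) and CSF1R (0.13 ± 0.04) rose, and CD68 (-0.19 ± 0.06) and SPI1 (-0.10 ± 0.03) fell.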
